A study of Mus musculus with 9 samples.

Results

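The 57 genes described here encode actin and the proteins that build, cut, bundle and pull on actin filaments. They were chosen by name from what is known of the proteins, and each was read from the brightest probe set whose annotation names that gene alone. Of the 57 genes, 54 were measured, among 18193 genes in all. Both Arpc1b probe sets also name another gene, and Arpc3 and Actr2 were not analysed here. RNA came from 3 populations of bone marrow cells of C57BL/6 mice, males or females 4 to 10 weeks old, with 3 arrays for each population and 9 in all. No mouse carried an engineered allele or received a treatment, as far as the labels say. Mac1- myeloblasts were c-kit+ Gr1+ cells with little or no Mac1, and Mac1+ myeloblasts were c-kit+ Gr1+ cells that carried it. Both lacked B220, TER119, CD3, CD4, CD8 and IL7Rα. Neutrophils were c-kit- Gr1+ Mac1+ cells. The question was how transcript levels of the actin machinery differ between immature and mature cells of the neutrophil lineage.

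Neutrophils crawl toward a chemical signal by polymerising actin at the front of the cell and contracting myosin at its rear. New filaments branch from old ones at the Arp2/3 complex, which is switched on by proteins of the WASP and WAVE families, while formins and Ena/VASP proteins lengthen unbranched filaments. Cofilin, gelsolin and their helpers sever or cap filaments and so return monomers to a pool held by profilin and the thymosins. Talin, vinculin, kindlin and zyxin tie filaments to integrins, of which Mac1 is the main one on neutrophils.

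Each level is log2(intensity + 16), a difference is given ± standard error (SE) on the same scale, and n is 3 arrays in every population. A gene was called when its adjusted p was under 0.05 (limma, Benjamini-Hochberg over all 18193 genes). The fold changes are powers of 2 of these differences, and the offset of 16 shrinks those of dim genes. The number of arrays limits the precision. Nothing in the labels says that the arrays of a population came from separate mice, so a p-value reflects the spread among these arrays alone, and that spread may be technical. In bulk RNA, fewer cells of a type and less RNA per cell cannot be told apart.

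The sort markers followed the labels. Itgam, which encodes the alpha chain of Mac1, stood at 6.49, 6.41 and 6.45 in Mac1- myeloblasts, 9.87, 9.71 and 9.47 in Mac1+ myeloblasts and 11.00, 11.80 and 11.85 in neutrophils. Kit lay between 11.56 and 11.77 on the 6 myeloblast arrays and at 6.79, 8.28 and 8.44 on the neutrophil arrays. Neutrophil array 1 stood apart from the other two neutrophil arrays. Its median intensity was 61.8 against 39.1 to 45.4 on the other 8 arrays, and its 3′ control of 18S ribosomal RNA read 10269 against 1463 and 2099. The 5′ control of 18S ribosomal RNA did not set that array apart (10591 against 8419 and 10679). The summed intensity of 5 primary granule genes was 15035 there against 3704 and 1749, and 43 of the 54 actin genes had their highest neutrophil value on it. The part of these values in the differences was not tested beyond leaving that array out. Markers of other cells moved too. The 7 measured monocyte genes summed to between 37159 and 40114 in Mac1- myeloblasts, 4793 and 5866 in Mac1+ myeloblasts and 13678 and 21162 in neutrophils. For 7 megakaryocyte and platelet genes the sums were 690 to 786, 927 to 1039 and 2645 to 2765 in the same order, highest in neutrophils. Those of 6 dendritic cell genes were 13454 to 14463, 731 to 1345 and 466 to 838. Of the 6 measured B cell genes 4 stayed under an intensity of 100 on all 6 myeloblast arrays, and the list's sum (2815 to 12659) came mostly from Ebf1. Of the 5 T and NK cell genes 4 stayed under 100 there, and the sum (7684 to 12002) came mostly from Nkg7. The part of these cells in the results below was not tested.

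Transcripts of the actin machinery were often higher toward the neutrophil. Between Mac1- and Mac1+ myeloblasts 16 of 54 genes rose (29.6%) and 4 fell (7.41%), whereas 6.31% of all genes rose and 5.51% fell. From Mac1+ myeloblasts to neutrophils again 16 rose (29.6%) but 6 fell (11.1%), against 19.7% and 28.4% of all genes. Across the whole span, neutrophils against Mac1- myeloblasts, 28 rose (51.9%) and 5 fell (9.26%), against 22.6% and 30% of all genes. All 54 genes were among the 10916 that were not dim (above the lowest 40% by mean level), and of those genes 10.3% rose and 7.94% fell in the first comparison, 23.4% and 44.5% in the second and 27.4% and 45.5% in the third. Calls in either direction numbered 20, 22 and 33 of the 54 in the 3 comparisons, against 11.8%, 48.1% and 52.6% of all genes. The median difference of the 54 genes was 0.37, 0.16 and 0.59 in the 3 comparisons, and that of all genes -0.01, 0.05 and 0.05. The third comparison shares its arrays with the other two and adds no independent samples.

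**Figure D1:**
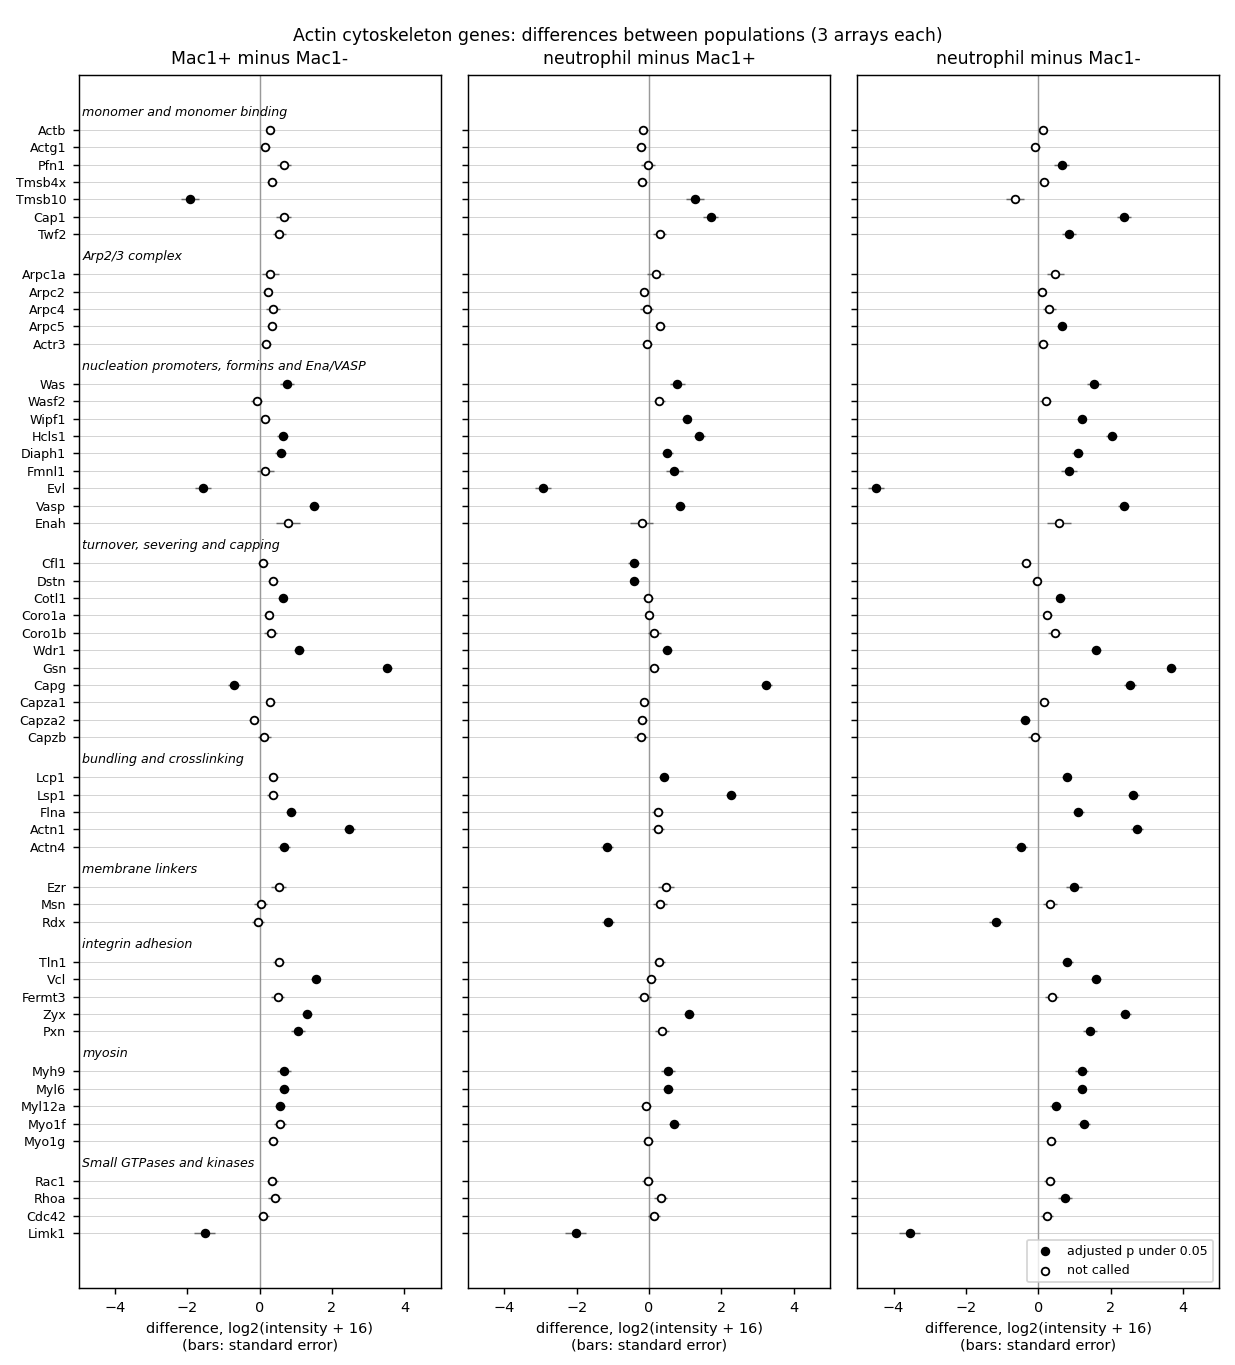
Difference between populations for each of the 54 measured actin genes, grouped by role (vertical axis), on the log2(intensity + 16) scale (horizontal axis, bars are standard errors, 3 arrays per population). Filled points are called genes: 16 higher and 4 lower in the left panel, 16 and 6 in the middle, 28 and 5 in the right.

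These counts moved with the arrays used. Without any one of the 6 myeloblast arrays, 9 or 10 genes were called higher between the myeloblasts, beside 3.9% to 4.49% of all genes. Without neutrophil array 1 there were 31, beside 12% of all genes, because the arrays share 1 estimate of the spread. The calls of Was, Hcls1, Diaph1, Actn4, Myh9 and Myl12a in this comparison ended without each of the 6 myeloblast arrays in turn, and those of Was, Diaph1 and Myh9 also without neutrophil array 2. Their adjusted p reached 0.112 (Actn4) to 0.181 (Myh9). The call of Cotl1 ended without Mac1- array 2 or 3 or Mac1+ array 1 or 3 (adjusted p from 0.00327 to 0.084 over single arrays left out). That of Capg ended without any of the 6 but Mac1- array 2 (0.00291 to 0.0895). Subtracting each array's median shifted the median gene of the second comparison from 0.05 to -0.15 and left 58.8% of the called actin genes higher there. Quantile normalization left 88.9% higher, against 72.7% in the values as deposited. Median centring ended the second-step calls of Diaph1, Fmnl1, Wdr1, Lcp1, Myh9 and Myl6 (adjusted p from 0.0741 to 0.329). The median difference of the 54 genes in that comparison turned to -0.03 under the first and became 0.49 under the second.

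Genes of actin itself were called in no comparison in the values as deposited, although quantile normalization gave Actb a called difference of 0.42 over the whole span (adjusted p = 0.0131). Actb, the gene of beta-actin, read 13.64, 13.61 and 13.64 in Mac1- myeloblasts, 13.95, 13.85 and 13.94 in Mac1+ myeloblasts and 13.76, 13.73 and 13.76 in neutrophils. The ranges did not overlap, yet the differences were small, 0.28 ± 0.12 (adjusted p = 0.209), -0.16 ± 0.12 (adjusted p = 0.305) and 0.12 ± 0.12 (adjusted p = 0.425). Actg1, the gene of gamma-actin, read 14.03, 13.94 and 13.97, then 14.10, 14.05 and 14.22, then 13.79, 13.89 and 14.00, and was not called either in the main fit. These are among 14 genes whose mean exceeded 13 in every population, close to the highest intensity on any array (18326 to 22749). Of these 14, 5 were called in any comparison, against 31 of the other 40, and their population means spanned only 0.18 to 0.78. Whether high intensities were compressed was not tested.

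Besides its brightest probe set, Actb has a dimmer one that averaged 9.38, 9.08 and 8.78 in Mac1- myeloblasts, Mac1+ myeloblasts and neutrophils. It differed by -0.29, -0.30 and -0.59 in the 3 comparisons and was not called. A further 3 Actb probe sets were placed on the arrays as controls along the transcript. The 3′ probe set read 13819 to 14202 in Mac1- myeloblasts, 16472 to 17062 in Mac1+ myeloblasts and 13466 to 16031 in neutrophils. The middle one read 9304 to 9919, 12050 to 13295 and 11552 to 12349, and the 5′ one 5543 to 6552, 7854 to 10148 and 8702 to 9454. All 3 were thus higher in Mac1+ than in Mac1- myeloblasts with no overlap. Neutrophils stood above Mac1- myeloblasts on the middle and 5′ probe sets and overlapped them on the 3′ one. The 3′ to 5′ ratio of Actb fell from 2.17 to 2.49 in Mac1- myeloblasts to between 1.52 and 1.84 in neutrophils, while that of Gapdh lay between 1.92 and 2.16 and between 2.06 and 2.7. The size of the Actb difference thus varied with the part of the transcript read.

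**Figure D2:**
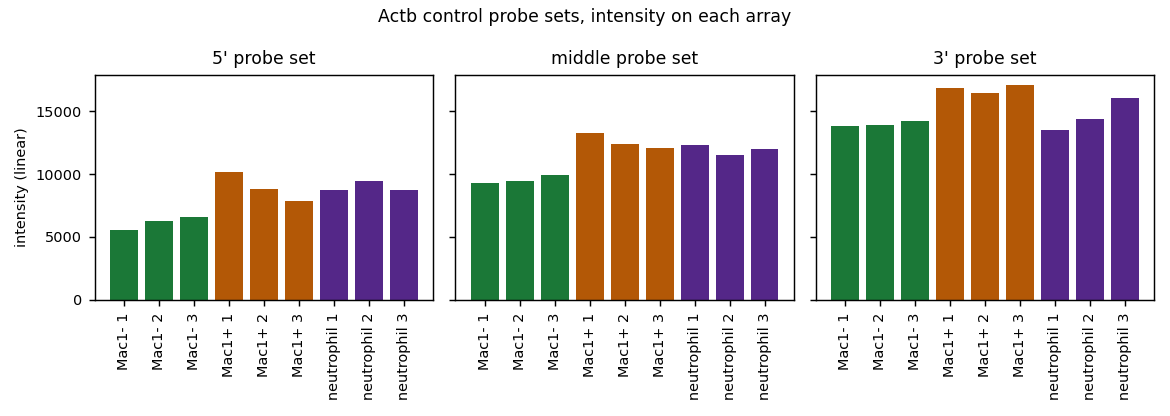
Intensity (linear, vertical axis from 0) of the 3 Actb control probe sets on each of the 9 arrays (horizontal axis, coloured by population). The 5′ probe set is lowest on the 3 Mac1- arrays (5543 to 6552), and the 3′ probe set reads 13466 to 17062 on all arrays.

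Among proteins that hold actin monomers, the thymosins behaved differently from each other. Tmsb4x, which encodes the main monomer-sequestering peptide of blood cells, was high and uncalled in the main fit, at 13.95, 13.65 and 13.76 in Mac1- myeloblasts, 14.08, 14.07 and 14.23 in Mac1+ myeloblasts and 13.84, 13.93 and 14.05 in neutrophils. After quantile normalization Tmsb4x was called higher over the whole span (0.436, adjusted p = 0.0185). Tmsb10, its close relative, read 13.55, 13.34 and 13.38 in Mac1- myeloblasts, 11.30, 11.64 and 11.58 in Mac1+ myeloblasts and 13.33, 12.67 and 12.32 in neutrophils. It therefore fell 3.78-fold at the first step (difference -1.92 ± 0.25, adjusted p = 0.00103) and rose 2.41-fold at the second (1.27 ± 0.25, adjusted p = 0.00224), with neutrophil array 1 the highest of its group. The next 2 brightest Tmsb10 probe sets, of the kinds that can also bind related transcripts, gave -2.64 and -1.52 at the first step. The one probe set not of these kinds was dim (4.56 to 5.29) and gave 0.02 there.

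Cap1, a protein that recycles actin monomers with cofilin, rose late. It read 9.34, 9.95 and 9.77 in Mac1- myeloblasts, 10.56, 10.36 and 10.15 in Mac1+ myeloblasts and 12.29, 11.99 and 11.87 in neutrophils, a 3.24-fold rise at the second step (1.70 ± 0.21, adjusted p = 0.000113). Pfn1, the gene of profilin, which feeds monomers to growing ends, was higher in neutrophils than in Mac1- myeloblasts by 0.64 ± 0.20 (adjusted p = 0.0218). That call ended without Mac1- array 1 (adjusted p = 0.0827, and from 0.0121 to 0.0827 over single arrays left out). Twf2, twinfilin 2, a monomer-binding protein, was higher by 0.84 ± 0.19 in the same comparison (adjusted p = 0.00421). The second Twf2 probe set was called higher at both steps as well (0.75 and 0.60, adjusted p = 0.00674 and 0.00447).

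Subunits of the Arp2/3 complex differed little on their brightest probe sets. Of the 5 measured, none was called at either step, with differences from 0.18 to 0.37 at the first and from -0.13 to 0.30 at the second (0 of 5, against 6.31% and 5.51% and against 19.7% and 28.4% of all genes). Arpc5 read 13.06, 13.01 and 13.04 in Mac1- myeloblasts, 13.45, 13.25 and 13.42 in Mac1+ myeloblasts and 13.76, 13.63 and 13.63 in neutrophils. It was called between neutrophils and Mac1- myeloblasts (0.64 ± 0.13, adjusted p = 0.00242). Arpc1a, Arpc2, Arpc4 and Actr3 differed there by 0.47, 0.09, 0.30 and 0.12, with adjusted p between 0.122 and 0.558. The second probe sets of Arpc2, which is dimmer, and Arpc4 were called higher there, by 2.05 (adjusted p = 9.26e-05) and 0.53 (adjusted p = 0.0105). Arpc2 and Arpc4 were called there too with the mean of probe sets and, together with Actr3, after quantile normalization. At the second step the dimmer Arpc2 probe set was called higher by 1.28 (adjusted p = 0.00232), and the mean of probe sets by 0.575 (adjusted p = 0.00998). Quantile normalization gave calls of Arpc5 (0.684, adjusted p = 0.0009) and Actr3 (0.362, adjusted p = 0.0221) at that step. The count of called subunits thus depended on the setting.

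Among the 9 genes whose proteins start or lengthen filaments, 4 rose and 1 fell between the myeloblasts, beside 6.31% and 5.51% of all genes. From Mac1+ myeloblasts to neutrophils 6 rose and 1 fell (19.7% and 28.4% of all genes), and over the whole span again 6 and 1 (22.6% and 30%). Vasp, which shields growing ends from capping, read 10.64, 10.80 and 10.61 in Mac1- myeloblasts, 12.27, 12.15 and 12.14 in Mac1+ myeloblasts and 13.26, 12.92 and 12.93 in neutrophils. It rose 2.83-fold (1.50 ± 0.15, adjusted p = 0.000204) and then 1.81-fold (0.85 ± 0.15, adjusted p = 0.00111). Its family member Evl ran the other way, at 9.67, 9.60 and 9.80 in Mac1- myeloblasts, 7.70, 8.18 and 8.51 in Mac1+ myeloblasts and 5.48, 5.0 and 5.09 in neutrophils. The groups did not overlap at either step, and the neutrophil values correspond to intensities under the array medians. Evl fell by 1.56 ± 0.23 (adjusted p = 0.00197) and then by 2.94 ± 0.23 (adjusted p = 5.28e-06). The size of the second fall is set partly by the offset of 16, so no fold is given. The second brightest Evl probe set fell by 1.31 and 1.11. The other 2, dimmer by mean level, gave 1.01 and 2.40 at the second step and were not called (adjusted p = 0.0842 and 0.0605). In neutrophils these 2 averaged 7.35 and 7.13, above the 5.19 of the brightest and the 6.19 of the second brightest. With the mean of its probe sets, Evl differed by -0.998 (adjusted p = 0.178) and -0.16 (adjusted p = 0.766) at the successive steps, and both calls ended. The third family member, Enah, was not called, and its probe sets disagreed. The brightest gave 0.57 between neutrophils and Mac1- myeloblasts and the next -2.90.

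Hcls1, a cortactin-like activator of Arp2/3 found in blood cells, read 10.28, 10.47 and 10.18 in Mac1- myeloblasts, 10.95, 10.83 and 11.05 in Mac1+ myeloblasts and 12.50, 12.37 and 12.13 in neutrophils. It was 2.62-fold higher at the second step (1.39 ± 0.16, adjusted p = 6.67e-05). Was, the Wiskott-Aldrich syndrome protein that activates Arp2/3, rose by 0.75 ± 0.20 (adjusted p = 0.0438) and 0.78 ± 0.20 (adjusted p = 0.011). Wipf1, which binds and stabilises it, rose at the second step by 1.04 ± 0.13 (adjusted p = 0.000131) and was not called at the first (0.16 ± 0.13). Among formins, Diaph1 rose at both steps (0.58 and 0.50, adjusted p = 0.0391 and 0.024), the second call ending without Mac1+ array 1 or 2 (0.0124 to 0.0872 over single arrays left out). Fmnl1 was higher in neutrophils than in Mac1- myeloblasts by 0.85 ± 0.23 (adjusted p = 0.0126). At the second step its call (0.69, adjusted p = 0.0338) ended without any one array other than neutrophil array 1 (up to 0.095). Wasf2, the WAVE2 subunit that works at the leading edge, was not called on its brightest probe set (-0.09, 0.28 and 0.20). Its second, dimmer probe set was called higher in neutrophils, by 1.05 against Mac1+ myeloblasts (adjusted p = 0.000302) and 0.77 against Mac1- myeloblasts (adjusted p = 0.0018). After quantile normalization, and with the mean of probe sets, Wasf2 was called higher in both of these comparisons.

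Turnover and capping held the gene with the largest rise among the 54. Gsn, the gene of gelsolin, which severs filaments and caps them in the presence of calcium, read 9.40, 9.53 and 9.54 in Mac1- myeloblasts. It read 13.13, 12.98 and 12.93 in Mac1+ myeloblasts and 13.18, 13.15 and 13.15 in neutrophils. The rise of 11.5-fold was complete at the first step on this probe set (3.53 ± 0.13, adjusted p = 1.22e-06), with 0.14 ± 0.13 after it (adjusted p = 0.397). The next 4 Gsn probe sets, which are dimmer, also rose by 3.57 to 3.77 at the first step. All 4 were called higher at the second as well, by 0.64, 0.64, 0.71 and 1.26. The dimmest Gsn probe set gave -0.02 at the first step and 3.33 at the second (adjusted p = 1.91e-06). On the dimmer probe sets Gsn thus rose further in neutrophils.

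Capg, a gelsolin relative that caps but does not sever, had another course. It read 10.41, 10.13 and 10.26 in Mac1- myeloblasts, 9.49, 9.62 and 9.56 in Mac1+ myeloblasts and 13.04, 12.78 and 12.57 in neutrophils. It fell by 0.71 ± 0.16 (adjusted p = 0.02) and then rose 9.44-fold (3.24 ± 0.16, adjusted p = 3.77e-07). The second Capg probe set was dim in every population (4.58 to 5.33) and gave 0.23 and 0.52 at the successive steps, uncalled. The early fall was thus read from the brightest one alone. That fall was in the same comparison in which the summed monocyte markers were lower, and the part of such cells in it was not tested. Wdr1, which helps cofilin take filaments apart, rose at both steps on its brightest probe set (1.09 and 0.50, adjusted p = 0.000803 and 0.0127). Its other probe sets, of similar brightness, were not called at the first step (0.46 and 0.50, adjusted p = 0.159 and 0.19). Nor were they at the second (0.36 and 0.04, adjusted p = 0.116 and 0.881). Over the whole span they were called higher (0.81 and 0.54, adjusted p = 0.00278 and 0.0439). With the mean of probe sets the second-step call of Wdr1 ended (0.301, adjusted p = 0.128). Cotl1, which binds filaments beside cofilin, was 0.63 ± 0.14 higher in Mac1+ than in Mac1- myeloblasts (adjusted p = 0.016).

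Cofilin fell slightly at the second step on its brightest probe set. Cfl1 read 13.93, 13.97 and 13.94 in Mac1- myeloblasts, 14.04, 13.96 and 14.08 in Mac1+ myeloblasts and 13.79, 13.59 and 13.41 in neutrophils. Dstn, the related actin-depolymerising factor, read 13.34, 13.16 and 13.23, 13.57, 13.57 and 13.67 and 13.09, 13.29 and 13.21 in the same order. From Mac1+ myeloblasts to neutrophils Cfl1 fell by 0.43 ± 0.14 (adjusted p = 0.0314) and Dstn by 0.41 ± 0.13 (adjusted p = 0.0294). The Cfl1 call ended without any one array other than neutrophil array 1 (adjusted p up to 0.0888), and that of Dstn without Mac1- array 3 or any Mac1+ array (up to 0.0879). Under quantile normalization the differences were -0.01 and -0.04. The second Cfl1 probe set gave -0.08.

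Coronins and capping protein differed little on their brightest probe sets in the values as deposited. Coro1a, the coronin of blood cells, read 13.55, 13.54 and 13.58 in Mac1- myeloblasts, 13.82, 13.74 and 13.85 in Mac1+ myeloblasts and 13.78, 13.78 and 13.85 in neutrophils, and Coro1b read 12.03, 11.62 and 11.70, 11.85, 12.05 and 12.35 and 12.40, 12.20 and 12.08. Neither was called. The second Coro1a probe set, about as bright, was called higher over the whole span (0.49, adjusted p = 0.011). Another, dimmer Coro1a probe set rose by 1.05 and 2.17 at the successive steps, so the size depended on the probe set. With the mean of probe sets Coro1a was called higher in all 3 comparisons (0.562, 0.757 and 1.32). After quantile normalization Coro1a and Coro1b were called higher over the whole span (0.526 and 0.539, adjusted p = 0.00447 and 0.0228). Capza1, an alpha subunit of capping protein, read 13.27, 13.18 and 13.22, then 13.54, 13.43 and 13.58, then 13.45, 13.38 and 13.33, while Capza2 read 12.98, 13.03 and 13.07, then 12.98, 12.86 and 12.74, then 12.72, 12.69 and 12.56. Capza2 fell by 0.37 ± 0.13 between Mac1- myeloblasts and neutrophils (adjusted p = 0.0399), a call that ended without any one of 6 arrays (the 3 Mac1- arrays, Mac1+ array 2 and neutrophil arrays 2 and 3, adjusted p up to 0.123). Capzb, the beta subunit, was not called on its brightest probe set (0.13, -0.24 and -0.105). Its second probe set was called higher over the whole span (0.92, adjusted p = 0.000841), as was the mean of probe sets (0.516, adjusted p = 0.0275). Median centring called Capzb lower at the second step (-0.433, adjusted p = 0.0266).

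**Figure D3:**
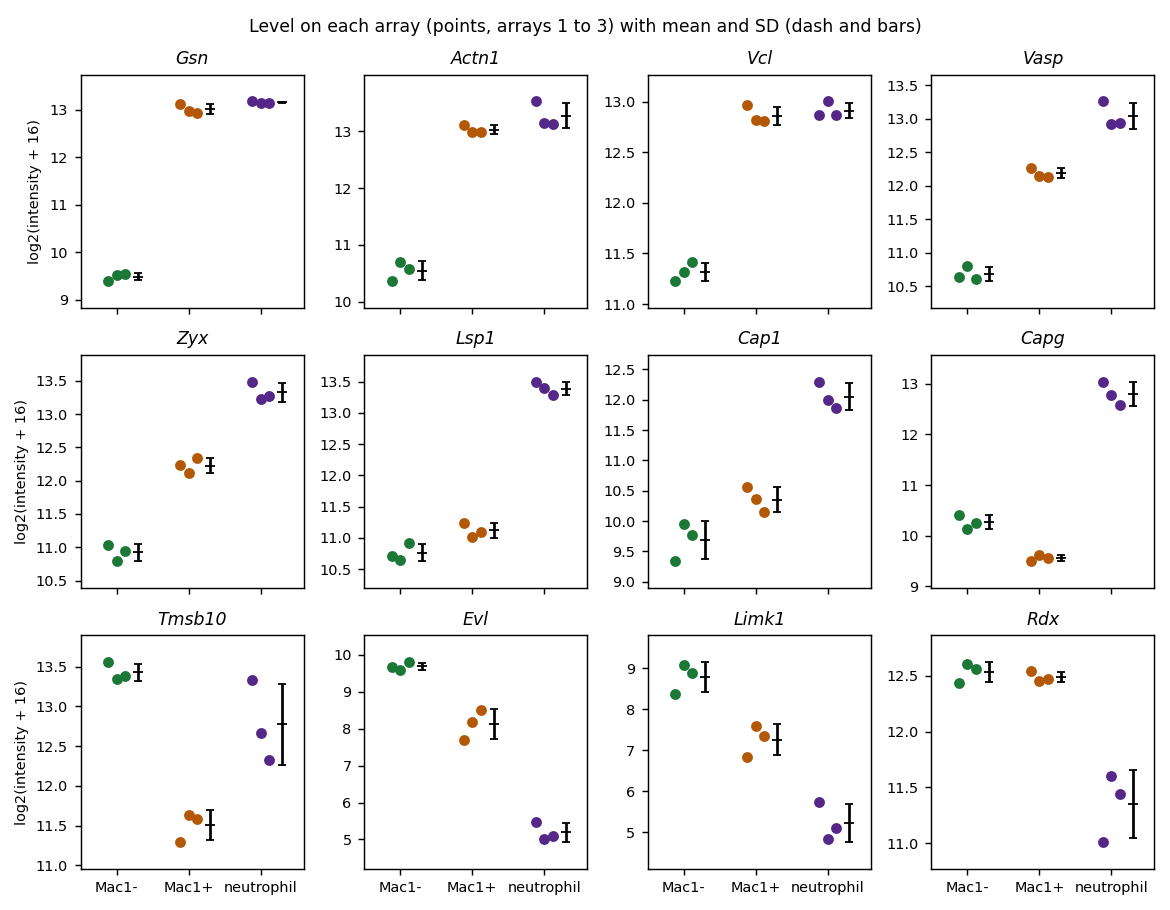
Level of 12 actin genes on each array (points, log2(intensity + 16), vertical axes differ between panels) in the 3 populations, with mean and SD. Gsn, Actn1 and Vcl step up between the myeloblasts, Lsp1, Cap1 and Capg in neutrophils, and Evl and Limk1 step down at both points.

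Among bundling and crosslinking proteins the alpha-actinins parted. Actn1, an alpha-actinin that crosslinks filaments at adhesions, read 10.37, 10.70 and 10.58 in Mac1- myeloblasts, 13.11, 12.99 and 12.98 in Mac1+ myeloblasts and 13.52, 13.15 and 13.13 in neutrophils. It rose 5.58-fold at the first step (2.48 ± 0.16, adjusted p = 2.03e-05) and was not called at the second (0.24 ± 0.16). The 2 dimmer Actn1 probe sets rose by 2.05 and 1.41 at the second step. Actn4, the other alpha-actinin of non-muscle cells, read 11.78, 11.92 and 11.82 in Mac1- myeloblasts, 12.56, 12.43 and 12.55 in Mac1+ myeloblasts and 11.68, 11.22 and 11.17 in neutrophils. It was highest in Mac1+ myeloblasts and fell by 1.16 ± 0.17 after them (adjusted p = 0.000317). Its difference between neutrophils and Mac1- myeloblasts, -0.49 ± 0.17 (adjusted p = 0.0338), lost its call without any one array other than neutrophil array 1 (up to 0.106).

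Lsp1, a leukocyte protein that binds filaments and slows their turnover, read 10.72, 10.65 and 10.92 in Mac1- myeloblasts, 11.24, 11.02 and 11.10 in Mac1+ myeloblasts and 13.49, 13.39 and 13.28 in neutrophils. Its rise came in neutrophils, 4.82-fold (2.27 ± 0.14, adjusted p = 1.58e-06). Flna, filamin A, which links filaments into a gel, rose at the first step by 0.86 ± 0.15 (adjusted p = 0.00508). Lcp1, the plastin of leukocytes, was 0.78 ± 0.12 higher in neutrophils than in Mac1- myeloblasts (adjusted p = 0.000507). Its smaller rise at the second step (0.40, adjusted p = 0.0234) lost its call without Mac1+ array 2 or 3 (up to 0.0804).

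Ezrin, radixin and moesin tie filaments to the cell membrane. Rdx read 12.44, 12.61 and 12.56 in Mac1- myeloblasts, 12.54, 12.45 and 12.47 in Mac1+ myeloblasts and 11.01, 11.60 and 11.44 in neutrophils, and fell 2.20-fold at the second step (-1.14 ± 0.17, adjusted p = 0.000463). Msn, the usual family member of leukocytes, was high and, in the values as deposited, uncalled at 12.30, 12.61 and 12.65 in Mac1- myeloblasts, 12.77, 12.47 and 12.39 in Mac1+ myeloblasts and 13.13, 12.71 and 12.69 in neutrophils. Ezr read 11.36, 11.43 and 11.31, 12.04, 11.67 and 11.96 and 12.85, 12.19 and 12.04 in the same order, 0.99 ± 0.22 higher in neutrophils than in Mac1- myeloblasts (adjusted p = 0.00411). The second Ezr probe set, nearly as bright, was called higher at both steps (0.71 and 0.60, adjusted p = 0.0117 and 0.00627). So was the mean of probe sets (0.617 and 0.535). After quantile normalization Msn was called higher at the second step (0.589, adjusted p = 0.00979) and over the whole span (0.553, adjusted p = 0.0119).

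Of the 5 genes that tie integrins to actin, 3 rose between the myeloblasts (60%, beside 6.31% of all genes) and 4 over the whole span (80%, beside 22.6%), and none fell. At the second step 1 rose (20%), close to the 19.7% of all genes. Vcl, vinculin, which reinforces loaded adhesions, read 11.23, 11.31 and 11.41 in Mac1- myeloblasts, 12.96, 12.81 and 12.80 in Mac1+ myeloblasts, and averaged 12.91 ± 0.08 in neutrophils (SD, n = 3). It rose 2.91-fold and then stayed within 0.05 ± 0.13 (first step 1.54 ± 0.13, adjusted p = 8.69e-05). A second, dim Vcl probe set gave 0.39 at the first step and was not called. Pxn, the adhesion scaffold paxillin, rose by 1.06 ± 0.19 (adjusted p = 0.00668). Tln1, talin, the activator of integrins, was 0.80 ± 0.15 higher in neutrophils than in Mac1- myeloblasts (adjusted p = 0.00162). Fermt3, the kindlin of blood cells, was not called on its brightest probe set (0.50, -0.13 and 0.36). A dimmer probe set was called higher between the myeloblasts (0.75, adjusted p = 0.0401) and over the whole span (0.68, adjusted p = 0.0155). Another was called higher at the second step (1.655, adjusted p = 0.00393) and over the whole span (1.97, adjusted p = 0.00118). The other was not called. Quantile normalization (0.73, adjusted p = 0.00147) and the mean of probe sets (0.86, adjusted p = 0.00305) gave calls over the whole span.

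Zyx, zyxin, which recruits VASP to adhesions, read 11.04, 10.79 and 10.94 in Mac1- myeloblasts, 12.23, 12.11 and 12.34 in Mac1+ myeloblasts and 13.48, 13.22 and 13.26 in neutrophils. On this probe set it rose by 1.30 ± 0.14 (adjusted p = 0.000426) and 1.10 ± 0.14 (adjusted p = 0.000198). The second Zyx probe set, much dimmer, went the opposite way, by -0.29, -2.09 and -2.38 in the 3 comparisons, and was called lower in both that involve neutrophils. Which of them follows the transcript was not tested.

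Of the 5 myosin genes, 3 rose at each step, beside 6.31% and 19.7% of all genes, and 4 over the whole span, beside 22.6%. None was called lower. Myh9, the heavy chain of non-muscle myosin IIA, which drives contraction at the rear, rose by 0.67 ± 0.18 (adjusted p = 0.0489) and 0.53 ± 0.18 (adjusted p = 0.0415). Its second call ended without any one array other than neutrophil array 3 (adjusted p up to 0.11), and without neutrophil array 1 the difference was 0.349. Myl6, an essential light chain of that myosin, read 8.22, 8.37 and 8.29 in Mac1- myeloblasts, 8.86, 9.02 and 9.01 in Mac1+ myeloblasts and 9.45, 9.45 and 9.58 in neutrophils, and rose by 0.67 ± 0.13 (adjusted p = 0.00934) and 0.52 ± 0.13 (adjusted p = 0.00833). The regulatory light chain gene Myl12a rose at the first step by 0.56 ± 0.14 (adjusted p = 0.0365) and over the whole span by 0.47 ± 0.14 (adjusted p = 0.0214), the latter call ending without any one Mac1- array (up to 0.0745). Myo1f, a single-headed membrane myosin of leukocytes, read 12.04, 12.11 and 12.11 in Mac1- myeloblasts, 12.66, 12.58 and 12.70 in Mac1+ myeloblasts and 13.63, 13.31 and 13.10 in neutrophils. It rose at the second step by 0.70 ± 0.16 (adjusted p = 0.00569). Myo1g, its relative, read 12.11, 11.98 and 12.06, then 12.33, 12.34 and 12.61, then 12.49, 12.41 and 12.31, and was not called.

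Of the small GTPases that direct this machinery, Rac1 and Cdc42 drive branched networks and polarity. On their brightest probe sets neither was called in any comparison, with differences from -0.03 to 0.34. The second Rac1 probe set, about as bright, was called lower in neutrophils, by -0.64 against Mac1+ myeloblasts (adjusted p = 0.00612) and -0.83 against Mac1- myeloblasts (adjusted p = 0.00111). The third Cdc42 probe set was called higher in the same comparisons, by 0.75 (adjusted p = 0.00466) and 1.26 (adjusted p = 0.000157). After quantile normalization both genes were called higher over the whole span, by 0.55 each. Rhoa, which drives contraction, read 12.38, 12.37 and 12.31 in Mac1- myeloblasts, 12.75, 12.72 and 12.83 in Mac1+ myeloblasts and 13.48, 12.97 and 12.81 in neutrophils, 0.73 ± 0.18 higher over the whole span (adjusted p = 0.00806). Limk1, the kinase that switches cofilin off, fell at both steps on its brightest probe set. It read 8.38, 9.09 and 8.87 in Mac1- myeloblasts, 6.84, 7.58 and 7.35 in Mac1+ myeloblasts and 5.73, 4.85 and 5.09 in neutrophils. The falls were 1.53 ± 0.30 (adjusted p = 0.00965) and 2.03 ± 0.30 (adjusted p = 0.000367). The neutrophil values correspond to intensities under the array medians, so the size of the second fall is set partly by the offset of 16 and no fold is given. With the mean of its probe sets the first difference was -0.61 (adjusted p = 0.0579) and its call ended. Its other 2 probe sets were dim in every population (4.40 to 5.44) and were not called.

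Sorted by course, 8 genes were called higher at both steps on the brightest probe set: Was, Hcls1, Diaph1, Vasp, Wdr1, Zyx, Myh9 and Myl6. A further 7 were called higher at the first step and over the whole span but not at the second: Cotl1, Gsn, Flna, Actn1, Vcl, Pxn and Myl12a. This grouping holds for the brightest probe sets and the values as deposited. After quantile normalization all of them but Vcl were called higher at the second step as well. Dimmer probe sets of Cotl1, Pxn and Myl12a were also called higher there, by 0.90, 0.84 and 0.80 (adjusted p = 0.00492, 0.00624 and 0.00539), as were dimmer ones of Gsn and Actn1. The late group held 6 genes called at the second step and over the whole span: Cap1, Wipf1, Fmnl1, Lcp1, Lsp1 and Myo1f. Evl and Limk1 were called lower at both steps, and Actn4, Capg and Tmsb10 were called in opposite directions at the successive steps. On the brightest probe sets and in the main fit, no call was made in any comparison for 18 genes, and 36 had at least 1. The population mean was highest in neutrophils for 30 genes, in Mac1+ myeloblasts for 19 and in Mac1- myeloblasts for 5. A call at one step and none at the other does not show that the steps differ, which was not tested.

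Ratios of related transcripts were taken within each array as differences of log2(intensity + 16). A common scaling factor largely cancels in them for bright genes but not for dim ones, such as Evl in neutrophils. With 3 arrays against 3, the exact permutation test (two-sided) cannot give a p under 0.1. The Evl to Vasp ratio, in log2 units, lay between -1.20 and -0.81 in Mac1- myeloblasts, -4.57 and -3.62 in Mac1+ myeloblasts and -7.92 and -7.77 in neutrophils. The populations did not overlap at either step (exact p = 0.1 each). The change over the whole span was -6.85 with the offset of 16, -7.61 with an offset of 1, -5.69 with 64 and -3.51 with the mean of probe sets. The Actn1 to Actn4 ratio rose by 1.81 and then by 1.40, with no overlap (exact p = 0.1 each). Msn against Rdx shifted by 1.43 at the second step (exact p = 0.1, against 0.6 at the first), and Myo1f against Myo1g by 0.72 (exact p = 0.1). Tmsb4x against Tmsb10 rose by 2.26 and came down by 1.46 (exact p = 0.1 each). Coro1a against Coro1b overlapped between all populations. For Actb against Actg1 the shift was 0.14 and 0.07 at the successive steps (exact p = 0.1 and 0.5).

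**Figure D4:**
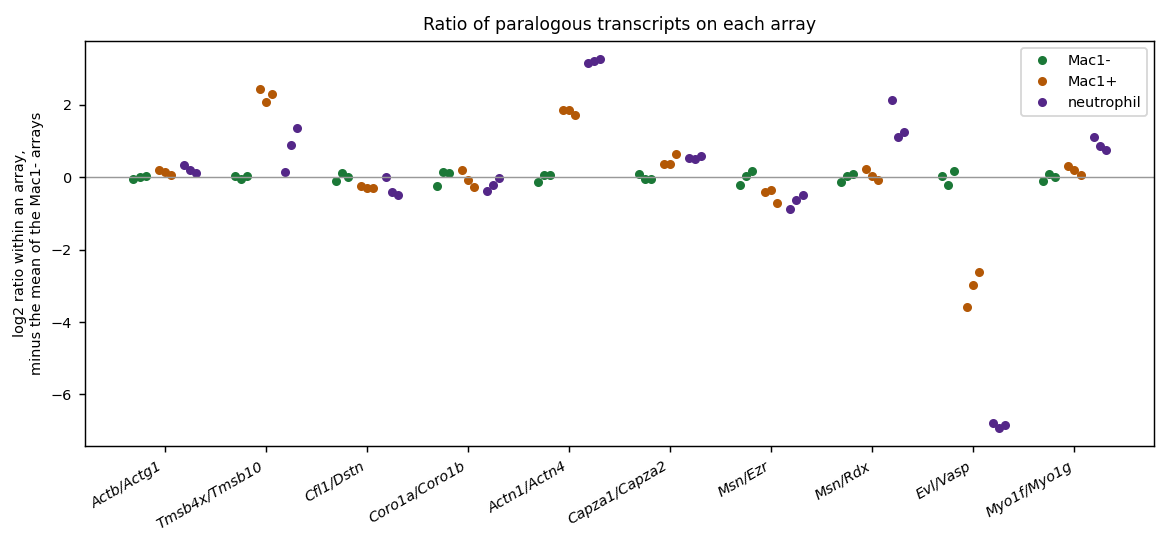
Log2 ratio of 10 pairs of related transcripts on each array, minus the mean of the 3 Mac1- arrays (vertical axis), by pair (horizontal axis), coloured by population. Evl/Vasp stands at -6.85 in neutrophils, where Evl is dim, Actn1/Actn4 rises by 3.21, and Coro1a/Coro1b overlaps throughout.

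Many of these genes are represented by several probe sets, which gives a check within the arrays. For 39 of the 54, a second probe set names the gene alone. The second brightest had the same sign as the brightest for 32 of 39 between the myeloblasts, 28 of 39 at the second step and 32 of 39 over the whole span. Of the 39, the brightest was called for 11, 14 and 23 and the second brightest for 7, 21 and 27 (limma over all 34945 probe sets that name 1 gene). Zyx was the only gene for which both were called in opposite directions. Probe sets of a gene share the RNA of an array and are not replicates.

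**Figure D5:**
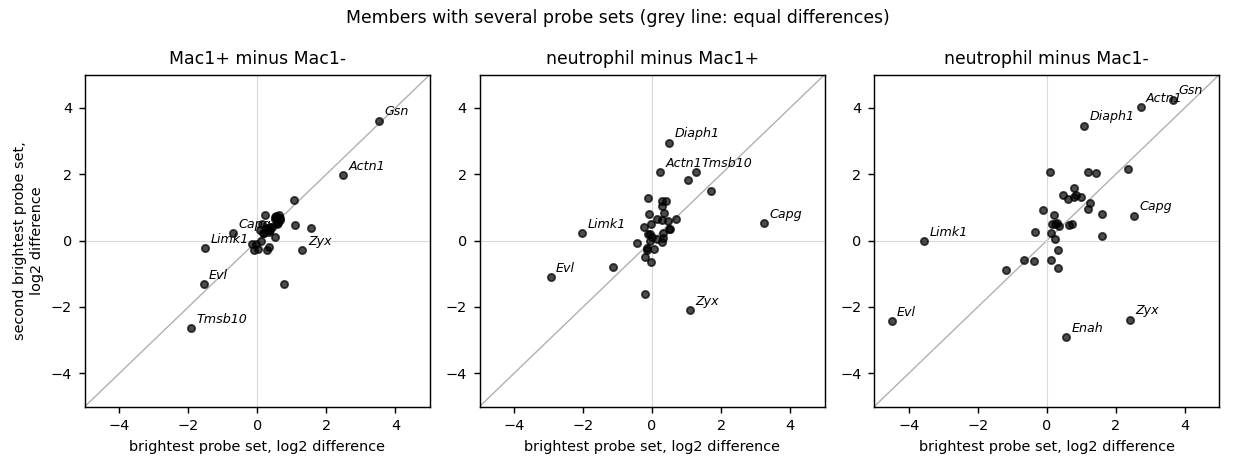
Difference on the brightest probe set (horizontal axis) against the second brightest (vertical axis), both in log2 units, for the 39 actin genes with several probe sets. Points off the grey line differ in size or sign: Zyx lies below 0 on its second probe set in all 3 panels. Capg drops from 3.24 to 0.52 in the middle one, where its second probe set is dim.

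A wider list of 135 other genes of actin regulation, chosen by role, moved in the same comparisons, with 122 measured. Between the myeloblasts 32 rose (26.2%) and 12 fell (9.84%), against 6.31% and 5.51% of all genes. At the second step 46 rose (37.7%) and 21 fell (17.2%), against 19.7% and 28.4%. Over the whole span 61 rose (50%) and 26 fell (21.3%), against 22.6% and 30%. Median differences were 0.23, 0.26 and 0.53, beside -0.01, 0.05 and 0.05 for all genes. Dock5, an activator of Rac, read 8.76, 8.55 and 8.73, then 10.39, 10.36 and 10.53, then 11.47, 11.86 and 11.69. Marcksl1 and Marcks encode related proteins that gather filaments under the membrane. Marcksl1 rose by 2.10 at the first step, and Marcks by 4.28 over the whole span. Limk2, the relative of Limk1, rose by 1.42 and 1.75, opposite to it.

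Tpm4, a tropomyosin, which coats filaments, moved furthest. It read 11.00, 10.51 and 10.62 in Mac1- myeloblasts, 6.37, 6.16 and 6.50 in Mac1+ myeloblasts and 13.14, 12.96 and 12.83 in neutrophils, so it fell by 4.37 ± 0.18 (adjusted p = 2.35e-06) and rose by 6.63 ± 0.18 (adjusted p = 4.01e-08). Its course, down and then up, was that of Capg and Tmsb10. Plek, pleckstrin, which reorganises actin in activated blood cells, rose by 4.41 at the second step, Myo1d by 4.15 and the cofilin phosphatase Ssh1 by 3.77. Over the whole span Myo1d rose by 5.66, Plek by 3.73 and Arhgap25, a brake on Rac, by 3.28.

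Genes that fell formed a mixed group. Cnn3, a calponin that binds filaments, fell by 3.02 and 3.03 at the successive steps. Pls3, a plastin of other tissues, fell by 2.85 and Vav2, an exchange factor, by 2.50 between the myeloblasts. In neutrophils Dock10 fell by 3.82, the cytokinesis kinase Cit by 3.11 and Tagln2, a transgelin, by 2.87 against Mac1+ myeloblasts. Chosen after their values were seen, Rac2 and Prex1 belong to the neutrophil Rac pathway. Rac2, the Rac of blood cells, differed by 0.89 ± 0.16 between the myeloblasts (adjusted p = 0.00677) and by -0.00 ± 0.16 at the second step. Prex1, which activates it, fell by 1.70 ± 0.17 (adjusted p = 0.000214) and rose by 3.66 ± 0.17 (adjusted p = 2.63e-07).

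Serum response factor, which binds the CArG box, is the known regulator of many actin genes, and its own gene moved here. Srf, also chosen after its values were seen, differed by 0.44 ± 0.14 between the myeloblasts (adjusted p = 0.099) and fell by 0.95 ± 0.14 from Mac1+ myeloblasts to neutrophils (adjusted p = 0.000514). Without probe sets of the kinds that can also bind related transcripts, the second difference of Srf was 0.02. Promoters, taken from RefSeq in the build GRCm38.p6, cover 250 bases before and 50 bases after a start site, and 49 of the 57 genes have one. A CArG box stood in the promoter of 4 of the 49 (8.16%), against 1.81% of 27025 genes. The 4 are Actg1, Vcl, Myl6 and Arpc4, whose 100-base windows before the start site are shown because they hold this box, in capitals, on the transcribed strand. The windows are chr11:120348531-120348630 (minus strand) for Actg1 and chr14:20929148-20929247 (plus strand) for Vcl. They are chr10:128493010-128493109 (minus strand) for Myl6 and chr6:113377863-113377962 (plus strand) for Arpc4.
Actg1: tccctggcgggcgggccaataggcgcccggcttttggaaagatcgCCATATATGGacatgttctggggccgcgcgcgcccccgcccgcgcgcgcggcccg
Vcl: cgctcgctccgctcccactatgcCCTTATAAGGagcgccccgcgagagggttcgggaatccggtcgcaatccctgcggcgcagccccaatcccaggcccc
Myl6: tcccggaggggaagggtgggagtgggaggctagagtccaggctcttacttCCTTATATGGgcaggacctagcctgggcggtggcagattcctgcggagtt
Arpc4: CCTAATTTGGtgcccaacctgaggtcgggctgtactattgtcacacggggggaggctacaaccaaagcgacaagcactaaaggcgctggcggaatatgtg
Of these 4, Vcl and Myl6 rose between the myeloblasts, and Actg1 and Arpc4 were called in no comparison. A match describes letters in a window and is not a binding site. The C/EBP motif TTGCNNAA stood in 8 of the 49 promoters (16.3%, against 12.2% of genes), those of Actn1, Evl, Hcls1, Myl6, Pfn1, Rhoa, Vasp and Wasf2. The PU.1 motif GAGGAAGT stood in 2 (4.08%, against 3.69%), Arpc1b and Fmnl1. Each motif was searched on both strands.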

How the data were processed

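The deposited data are linear intensity values of 45101 probe sets in 9 columns, each named for its sample. Per the labels' protocols, RNA was purified on columns, amplified in a two-cycle protocol, which favours 3′ ends, and labelled with biotin. The sources used here do not give how intensities were summarised and scaled.

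By the platform annotation, 34945 probe sets name 1 gene, 932 several, 9160 none, and 64 are controls. From the values as deposited, log2(intensity + 16) was taken, the brightest probe set per gene by mean over the 9 arrays was kept, and 18193 genes were tested in 1 model of the 3 populations (limma 3.58.1, R 4.3.3, Benjamini-Hochberg adjusted p-values). The members, lists and alternatives were chosen with earlier results of these data known. Genes named with values per array are the called genes with the largest rise and fall per role and comparison, and both genes of each related pair. Of the wider list they are up to 4 called genes per direction.

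In simulated data of 18193 genes for neutrophils against Mac1- myeloblasts, 100 genes were changed by 2 log2 units and 100 by 1. Of these, 84% and 36% were recovered, and 7.69% of calls were false. In the measured comparison 52.6% of all genes were called, far more than were changed in the simulation, so these shares need not hold for it. No pair of arrays held identical values. Alternatives were a replicate block, quantile normalization, median centring, offsets of 1 and 64, averaging the probe sets of a gene, leaving out dim genes or probe sets with the suffix x or s, a trended robust prior, fitting only both populations of a comparison, array weights and leaving out each array. The second brightest probe set was added after seeing the data. Same-numbered arrays of different populations did not deviate together (correlations from -0.307 to 0.132, over 0.1 in 1 of 9 pairs), so the numbers were not taken as pairs.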

Additional observations from a re-analysis of the deposited data

How the results depend on the processing

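Of the 20, 22 and 33 calls among the 54 actin genes in the 3 comparisons (Mac1+ against Mac1- myeloblasts, neutrophils against Mac1+ myeloblasts, neutrophils against Mac1- myeloblasts), 8, 11 and 27 kept direction and call under every alternative other than the second probe sets, among them Gsn, Actn1, Vcl, Vasp, Wdr1, Flna, Pxn and Myl6 in the first. With replicate number as a block, 10 members were higher in the first comparison (16 without), with 21 of the wider list (32 without), and 3 were lower in the third (5 without). Of all genes 29.3% were lower in the third with the block and 30% without. Other counts of members higher in the first comparison were 10 with an offset of 1, 26 with an offset of 64, 30 with a trended robust prior, 31 with only the 2 populations compared, 35 with array weights and 10 on second probe sets. The share of all genes called higher moved too, from 6.31% to 5.22%, 8.27%, 7.59%, 12.5%, 16% and 4.35% in the same order, and to 4.77% with the block. Lower in it were 1 with the mean of probe sets and 2 on second probe sets, against 4, beside 5.51%, 4.01% and 5.51% of all genes. The wider list gave 53 higher and 19 lower with only the 2 populations compared, and 56 and 22 with array weights. Of all genes 12.5% were higher and 12.3% lower in the former, and 16% and 15.7% in the latter. Leaving out 1 array gave 9 to 31 members higher and 3 to 4 lower, and 18 to 53 and 7 to 18 of the wider list. Of all genes 3.9% to 12% were then higher and 3.29% to 10.9% lower. In the second comparison members higher were 32 after quantile normalization and 10 after median centring (16 as deposited), beside 20.8%, 15.3% and 19.7% of all genes. With array weights 32 of the wider list were lower (21 without), beside 35.1% of all genes (28.4% without). Leaving out 1 array gave 12 to 16 members higher and 4 to 8 lower, with 41 to 52 and 17 to 28 of the wider list. Of all genes 15.3% to 23.4% were then higher and 25.5% to 31.5% lower. In the third, members lower were 3 with only the 2 populations compared and 8 with array weights, beside 28% and 37.7% of all genes. Leaving out 1 array gave 3 to 8 lower and 27 to 29 higher, the 8 being without neutrophil array 1. Of the wider list 55 to 68 were then higher and 20 to 27 lower, and of all genes 18.3% to 25.3% and 27.4% to 33.2%. Median differences of the members were 0.305 (first), 0.492 (second) and 0.797 (the third) after quantile normalization. After median centring they were -0.0328 (second) and 0.427 (the third), and with the mean of probe sets 0.845 (the third). Leaving out 1 array gave 0.347 to 0.416, 0.0991 to 0.23 and 0.488 to 0.647.

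Some values turned sign. Without probe sets with the suffix x or s, Tmsb10 gave 0.0222 (first comparison), Tmsb4x/Tmsb10 -0.575 (the third) and Srf 0.0241 (second) and 0.289 (the third). With the mean of probe sets, Actb/Actg1 gave -0.148 (the first and the third) and Zyx -0.499 (second, called lower). On second probe sets Zyx gave -0.286, -2.09 and -2.38, Capg 0.229 (first) and Limk1 0.215 (second). The cause was not tested.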
